A study of Mus musculus with 9 samples.

Results

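Crispld2, C2cd4d, Lbp, Lhx6, Gm43822 and Basp1 are 6 genes, of the 24062 named in the count table, whose transcripts were found largely in T cells of a Th17 culture and much less in cells of a Treg culture. They were chosen by their levels in the Th17-culture cells against the Treg-culture cells, so for these 6 genes every value set against the Treg culture is a description, and only the comparison inside the Th17 culture is tested. Other genes are tested in both. Naive CD4+ T cells came from excised spleens of young adult male F1 mice that carry the RORγtGFP and Foxp3RFP reporters, were activated with anti-CD3 and anti-CD28 beads and were cultured for 3 days. Double-positive RORγt+Foxp3+ cells (DP) and single-positive RORγt+ cells (SPR) were sorted from the Th17 culture, which received TGFβ and IL6, and single-positive Foxp3+ cells (SPF) were sorted from the Treg culture, which received TGFβ and IL2, with 3 libraries per population. All 9 libraries share the reporter genotype, a GFP reporter transgene with a Foxp3-IRES-mRFP knock-in. The mice are called heterozygous for both reporters in the sources used here. The sources used here do not say whether one replicate number stands for one mouse. The sorted population and the cytokines differ together between the Th17-culture libraries and SPF, so their parts cannot be told apart, and in bulk RNA fewer cells that use a gene and less RNA per cell cannot be told apart either.

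The libraries held 1495152 to 2447057 counts in DP, 2323243 to 3759662 in SPR and 2149540 to 2204236 in SPF, so that 1 count was worth 0.266 to 0.669 CPM (the counts-per-million scale, set by the library total). Foxp3, the gene of the RFP reporter, followed the sort. It stood at 130.0, 77.2 and 93.6 CPM in DP and at 7.33, 7.32 and 6.38 CPM in SPR, against 231.8, 244.2 and 208.7 CPM in SPF. All 7 CD4 T cell markers examined were over the low-count filter, with a summed level of 3137 to 3916 CPM in DP, 3517 to 4495 CPM in SPR and 4378 to 5026 CPM in SPF.

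Th17 cells are helper T cells that form when naive cells receive TGFβ together with IL6. IL6 acts through STAT3, and IL17A, IL17F and IL21 are among the products that these cells secrete. The 6 genes do not belong to one pathway. Crispld2 and Lbp encode secreted proteins that bind bacterial lipopolysaccharide (LPS), C2cd4d belongs to a small family named for a C2 calcium-dependent domain, Gm43822 lies beside Il21 in the genome, Lhx6 encodes a homeobox transcription factor best known from interneurons of the forebrain, and Basp1 encodes a membrane-bound, calmodulin-binding protein first described in nerve endings.

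Most of the set was at the edge of detection in SPF. Crispld2, C2cd4d, Lbp, Lhx6 and Gm43822 each had exactly 2 counts summed over the 3 SPF libraries, and each had at least 170 counts summed over DP and at least 207 over SPR. Basp1 was different, with 631 counts in DP, 1645 in SPR and 104 in SPF, and "nearly confined" does not describe it: it was lower in SPF, not near 0. Among 7765 genes with a mean of 10 CPM or more in both DP and SPR, SPF held a median of 32.3% of the summed group means. SPF held 0.231% for Crispld2, 0.272% for C2cd4d, 0.451% for Gm43822, 0.488% for Lbp and 0.587% for Lhx6, which placed them at ranks 3, 5, 8, 9 and 10 from the lowest share. Basp1, at 5.02%, was at rank 85. Dpf1 and Serpinf1 were at ranks 1 and 2, Ly6g at 4, Gatm at 6 and Gipr at 7, with 0, 1, 1, 1 and 5 counts over SPF. So few counts do not fix the order of the lowest ranks, which also depends on the level in the Th17 culture.

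**Figure D1:**
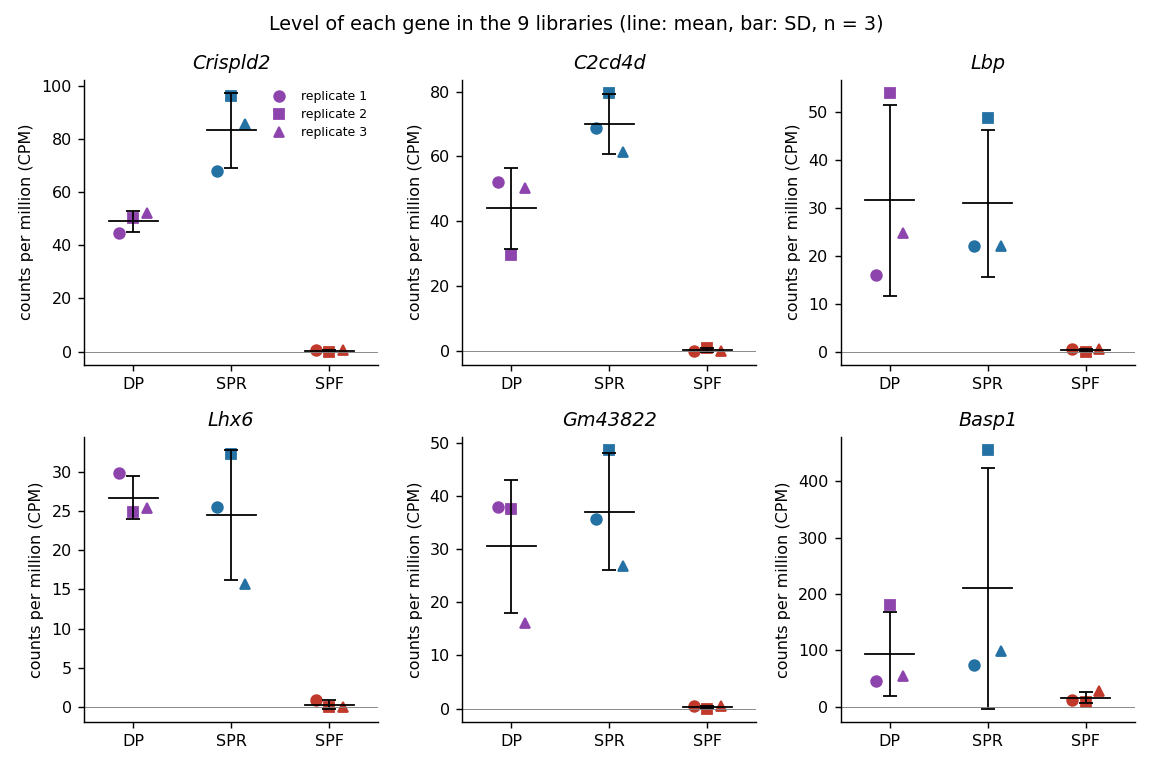
Level of each of the 6 genes in CPM (vertical axes, linear, one scale per gene) in the DP, SPR and SPF libraries. Symbols are single libraries by replicate number, the long line is the mean and the bar is the SD of 3 libraries. The SPF points of 5 genes lie at 0.930 CPM or below, while those of Basp1 reach 27.4 CPM.

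**Figure D2:**
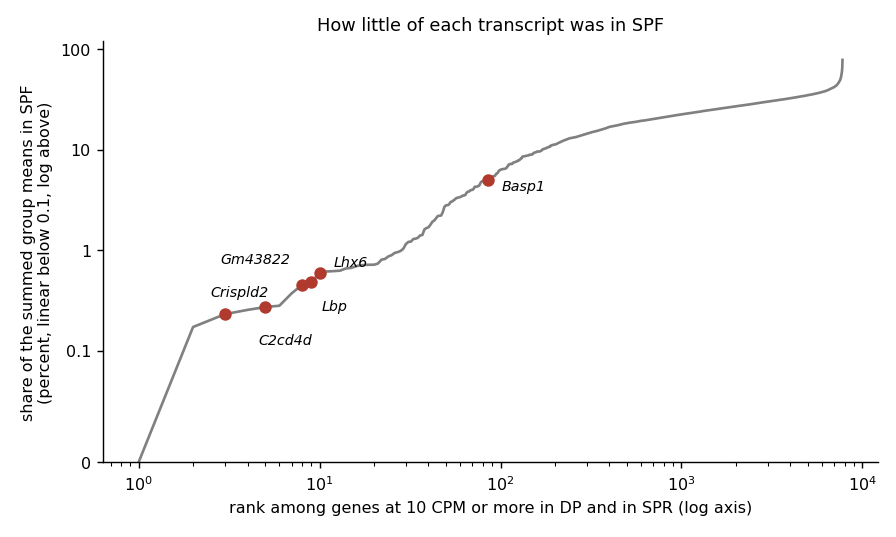
Share of the summed group means found in SPF (vertical axis, percent, linear below 0.1 and logarithmic above) against rank for 7765 genes that average 10 CPM or more in DP and in SPR (horizontal axis, log scale). Red points are the 6 genes: 5 lie at ranks 3 to 10, and Basp1 at rank 85.

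C2cd4d is a short gene of 2129 bases. It lies at chr3:94362438-94364566 on the plus strand (GRCm38, GENCODE M21) and overlaps no annotated gene. C2cd4d had 52.2, 29.4 and 50.2 CPM in DP and 68.7, 79.6 and 61.4 CPM in SPR, against 0, 0.930 and 0 CPM in SPF. Every DP library was thus below every SPR library, and all 6 were far above SPF. The ratio of summed counts was 139 for DP over SPF (95% counting interval 38.2 to 1158) and 223 for SPR over SPF (61.4 to 1844). Here and below such intervals cover counting error only, and the ratios are wide because they rest on 2 counts in SPF. Without SPF replicate 2, which held both counts, the ratios were at least 62.3 and 99.5 against a floor of 3 counts over SPF, and without SPF replicate 1 they were 92.2 and 147.

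A pair of noncoding transcripts around C2cd4d shared the pattern. Gm38411, an antisense transcript 4045 bases away on the minus strand, had 47.5, 44.1 and 34.8 CPM in DP and 42.9, 114.5 and 56.9 CPM in SPR, against 1.36, 0 and 0.929 CPM in SPF. It was not called between DP and SPR, and SPR replicate 2 stood above the rest. Gm36070, a processed transcript 1595 bases from C2cd4d on the minus strand, was low throughout, with 23 counts in DP, 45 in SPR and 0 in SPF. Them5, the next gene on the far side, had 1 count in DP, 0 in SPR and 1 in SPF. Gm38411 is annotated as antisense, and without strand its reads cannot be told apart from those of the other strand; the sources used here do not give the strand setting.

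The sequences before the starts of C2cd4d and Crispld2 are shown because Crispld2 was the gene nearest to C2cd4d in its profile over the libraries. Each is the RefSeq window on GRCm38.p6 from 250 bases before to 50 bases after the start, 5′ to 3′, with the start base in capitals, at chr3:94362194-94362493 on the plus strand for C2cd4d and at chr8:119992188-119992487 on the plus strand for Crispld2.
C2cd4d: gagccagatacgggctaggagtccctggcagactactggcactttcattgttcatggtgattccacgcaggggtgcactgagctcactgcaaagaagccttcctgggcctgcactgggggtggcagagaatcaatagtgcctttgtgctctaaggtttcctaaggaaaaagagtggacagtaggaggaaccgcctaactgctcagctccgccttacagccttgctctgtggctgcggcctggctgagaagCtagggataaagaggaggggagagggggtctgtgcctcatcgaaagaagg
Crispld2: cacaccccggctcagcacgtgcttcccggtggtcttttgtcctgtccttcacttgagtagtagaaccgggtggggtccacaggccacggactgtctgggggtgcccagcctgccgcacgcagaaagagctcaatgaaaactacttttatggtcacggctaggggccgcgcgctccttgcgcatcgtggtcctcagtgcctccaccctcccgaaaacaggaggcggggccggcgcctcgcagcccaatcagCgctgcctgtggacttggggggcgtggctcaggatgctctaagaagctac
The motifs searched, on both strands, were TTCNNNGAA (STAT), AGGTCA (ROR), TGANTCA (AP-1) and TGGAAA (NFAT), and they occur in 8.30%, 16.3%, 7.81% and 21.4% of 32851 windows of the same length. None of them is in either window, nor in that of Basp1, which says only that these letters are not there. The C2cd4d window is 55.7% G and C and the Crispld2 window 63.0%, beside a median of 52.7% over all windows, and the Basp1 window at chr15:25413715-25414014 on the minus strand is 78.0%.

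**Figure D3:**
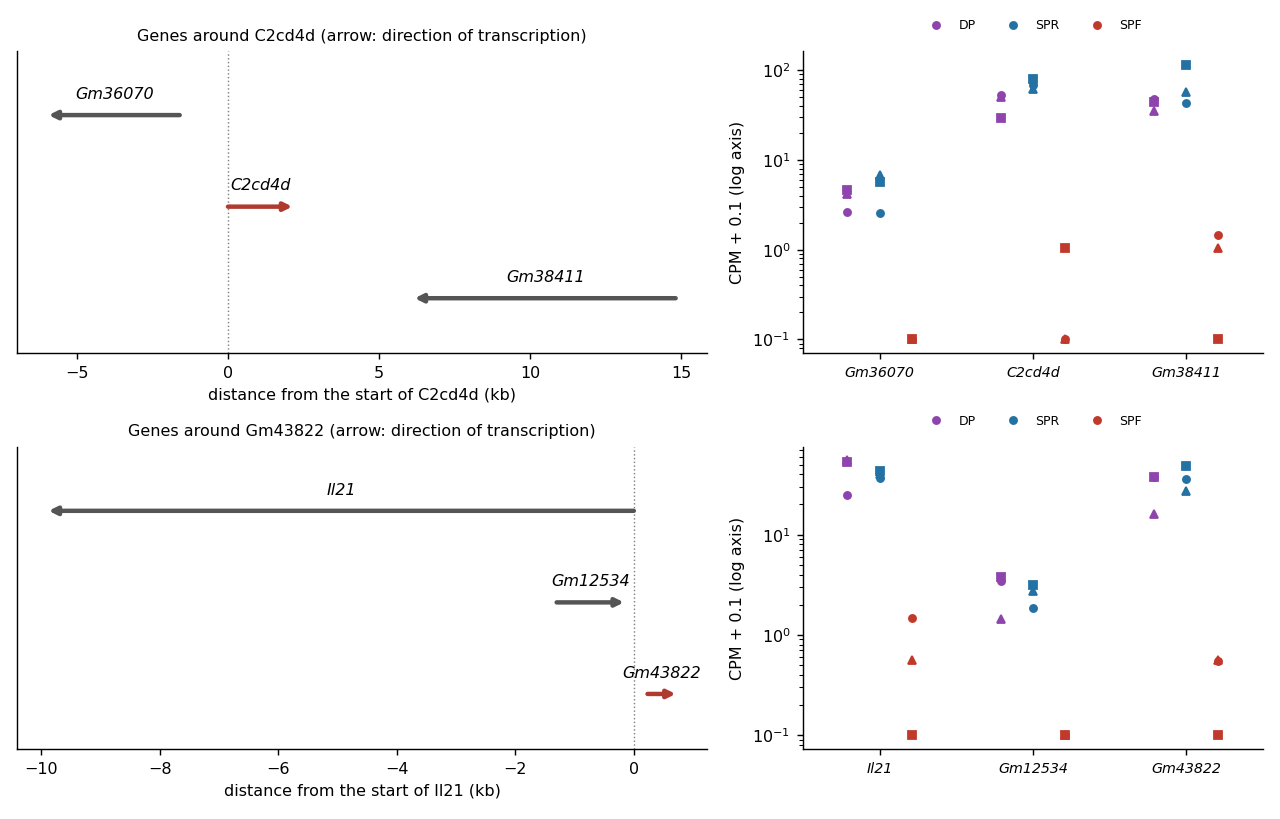
Left, genes around C2cd4d (top) and Gm43822 (bottom), drawn to scale by distance in kb from the start of C2cd4d or of Il21, with arrows in the direction of transcription. Right, CPM plus 0.1 (log axis) of the same genes in every library (circle, replicate 1; square, replicate 2; triangle, replicate 3), where points at 0.1 had no count and where each gene stands far lower in SPF than in DP and SPR.

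Gm43822 is an unspliced transcript of 476 bases next to the start of Il21, and its annotation class (TEC) holds transcripts still awaiting experimental proof. It lies at chr3:37232867-37233342 on the plus strand, 230 bases from Il21, which runs the other way at chr3:37222759-37232636. Il21 encodes a cytokine of Th17 and follicular helper cells. Gm43822 had 37.9, 37.6 and 16.1 CPM in DP and 35.6, 48.6 and 26.9 CPM in SPR, against 0.454, 0 and 0.465 CPM in SPF. DP and SPR overlap, and in both the replicate 3 library was the lowest. The ratio of summed counts was 106 for DP over SPF (29.0 to 881) and 115 for SPR over SPF (31.5 to 953).

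Il21 had 24.8, 52.7 and 54.8 CPM in DP and 37.0, 43.5 and 40.2 CPM in SPR, against 1.36, 0 and 0.465 CPM in SPF. Il21 thus lay near 0 in the same 3 libraries as Gm43822. The 2 did not keep a fixed ratio: for each 100 Il21 counts there were 152.5, 71.3 and 29.3 Gm43822 counts in DP and 96.2, 111.9 and 66.9 in SPR, with no order between the groups (p = 0.8 in a two-sided exact permutation test, where 0.1 is the smallest p that 3 against 3 libraries allow). This ratio was chosen after its values were seen. Gm12534, a transcript antisense to Il21, had 19 counts in DP, 22 in SPR and 0 in SPF. Cetn4, a centrin gene 74406 bases away, averaged 25.5 ± 10.1 CPM in DP and 21.2 ± 4.59 CPM in SPR, against 3.85 ± 3.53 CPM in SPF (SD, n = 3 each).

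The first 300 bases of the Gm43822 transcript (GENCODE M21, chr3:37232867-37233166 on the plus strand) are shown because it is the least described of the 6 genes. Capitals mark its match to TTCNNNGAA, at bases 80 to 88, the only match of the 4 motifs in this stretch.
Gm43822: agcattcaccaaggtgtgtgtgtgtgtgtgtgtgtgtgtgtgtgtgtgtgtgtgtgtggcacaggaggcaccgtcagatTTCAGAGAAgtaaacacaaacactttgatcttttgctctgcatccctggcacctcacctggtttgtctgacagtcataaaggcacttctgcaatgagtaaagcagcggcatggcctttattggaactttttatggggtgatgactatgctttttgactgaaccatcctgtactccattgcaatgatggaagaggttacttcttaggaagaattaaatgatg
The longest run of A in the whole transcript is 4 bases, and 39.9% of its bases are G or C. Neither Gm43822 nor Lbp is matched in the table of promoter windows.

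Crispld2 and Lbp were the secreted proteins of the set. Crispld2, a member of the CAP superfamily whose protein binds LPS, lies at chr8:119992438-120052793 on the plus strand. It had 44.6, 50.3 and 52.2 CPM in DP and 68.0, 96.0 and 85.6 CPM in SPR, against 0.454, 0 and 0.465 CPM in SPF. The DP libraries lay close together and wholly below the SPR libraries. The ratio of summed counts was 158 for DP over SPF (43.4 to 1311) and 269 for SPR over SPF (74.2 to 2225), the largest ratios of the 6 genes. Another plus-strand gene, Gm20388, spans it, and the antisense gene Gm15684 lies within it. Neither was analysed here, and reads that the overlap could share were not separated. The adjoining genes Usp10 and Zdhhc7 were in use in all populations: Usp10 averaged 58.9 ± 2.32 CPM in DP and 53.4 ± 9.69 CPM in SPR, against 33.8 ± 10.1 CPM in SPF, and Zdhhc7 54.6 ± 8.58, 48.5 ± 2.25 and 60.8 ± 8.86 CPM in DP, SPR and SPF (SD, n = 3 each). Klhl36, 115442 bases away, averaged 12.3 ± 1.57, 9.03 ± 1.95 and 14.8 ± 3.31 CPM in DP, SPR and SPF (SD, n = 3 each).

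Lbp encodes the LPS-binding protein of serum, an acute-phase protein made mainly by the liver that hands LPS to CD14 and TLR4. It lies at chr2:158306493-158332852 on the plus strand. Lbp had 16.0, 53.9 and 24.7 CPM in DP and 22.0, 48.6 and 22.1 CPM in SPR, against 0.454, 0 and 0.465 CPM in SPF. In both DP and SPR the replicate 2 library was the highest, and the populations overlapped. The ratio of summed counts was 107 for DP over SPF (29.1 to 886) and 94.1 for SPR over SPF (25.8 to 782), and without DP replicate 2 the first was 63.0. Transcripts of 4 of 5 hepatocyte markers were in the table, and their summed level was 0 to 0.409 CPM in DP, 0 to 0.430 CPM in SPR and 0 to 0.907 CPM in SPF. Snhg17, the nearest tested gene, averaged 51.1 ± 13.0 CPM in DP and 51.7 ± 11.2 CPM in SPR, against 21.4 ± 3.27 CPM in SPF (SD, n = 3 each).

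The partners that Lbp hands LPS to were at or near 0. Cd14 and Ly96 had no count in any library, and Tlr4 had 1, in SPR. Of 17 genes of LPS binding and sensing in the table, other than Lbp and Crispld2, 9 passed the low-count filter. In edgeR's quasi-likelihood test with Benjamini-Hochberg adjustment over 9310 genes, 3 of these were higher and 0 lower in DP against SPF, where 7.55% of all genes were called higher, and 1 was higher and 0 lower in SPR against SPF, where 9.14% were. Tirap, the adaptor that joins TLR4 to MyD88, was higher in both, with log2 fold changes of 3.35 in DP (adjusted p = 0.00299) and 3.08 in SPR (adjusted p = 0.0028). Gbp2, an interferon-inducible GTPase, and the kinase gene Irak1 were called higher in DP against SPF, with log2 fold changes of 3.67 (adjusted p = 0.0232) and 0.66 (adjusted p = 0.0289). The list's median log2 fold change was 0.50 in DP and 0.38 in SPR against SPF, beside 0.01 and 0.001 over all genes tested. Calls against SPF fell most without replicate 2. The 1278 genes called in DP against SPF became 553 without SPF replicate 2 and 565 without DP replicate 2. The 1557 in SPR against SPF became 836 without SPR replicate 2 and 878 without SPF replicate 2. Other losses also moved the calls. In DP against SPF they were 864 and 869 without DP replicate 1 and 3, 876 without SPF replicate 1 and 1822 without SPF replicate 3. In SPR against SPF they were 1099 and 1092 without SPR replicate 1 and 3, 1185 without SPF replicate 1 and 2059 without SPF replicate 3.

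Relatives of Lbp and Crispld2 were few in the table and mostly low. Of 7 relatives of Lbp in the lipid transfer family, 3 were counted and 0 passed the filter; Pltp, the phospholipid transfer protein, had 15 counts in DP, 9 in SPR and 1 in SPF. Of 4 relatives of Crispld2 in the table, 2 were tested. Glipr2 was higher against SPF by 0.63 in DP (adjusted p = 0.0483) and 0.67 in SPR (adjusted p = 0.0337) on the log2 scale, and Glipr1 was not called, with 11.0 ± 1.81 CPM in DP and 10.1 ± 9.37 CPM in SPR against 33.4 ± 8.54 CPM in SPF (SD, n = 3 each). C2cd4b, the only relative of C2cd4d in the table, fell below the filter, with 5, 5 and 6 counts in DP and 0, 1 and 1 in SPR, against 0 in each SPF library; it lay in DP more than in SPR, the other way round from C2cd4d.

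Lbp is also a gene of the acute phase, which IL6 drives through STAT3. Of 19 other genes of that list in the table, 12 were tested, and the plasma protein genes Saa3, Hp, Hpx, Lcn2, Fga and A2m were below the filter. In DP against SPF, 6 were higher and 1 lower (7.55% and 6.18% of all genes), and in SPR against SPF, 5 were higher and 3 lower (9.14% and 7.58%). Cebpd, a transcription factor of the acute phase, had 20, 14 and 16 counts in DP and 10, 0 and 8 counts in SPR, against 0 in each SPF library. Cebpd is 1 of the 6 called higher in DP, but only DP replicate 3, at 10.7 CPM, was over the low-count filter. Its call thus rests on a gene tested through the group where it is high. Hif1a was higher by 2.05 in DP (adjusted p = 0.00104) and by 2.29 in SPR (adjusted p = 0.000401) on the log2 scale, and Socs3, the inhibitor that STAT3 induces, by 1.78 (adjusted p = 0.00266) and 1.13 (adjusted p = 0.0145). Serpina3g, a protease inhibitor of T cells, was lower in both, at -3.36 on the log2 scale in DP (adjusted p = 0.0235) and -3.48 in SPR (adjusted p = 0.014). It was over the low-count filter only in SPF replicates 1 and 3, at 13.6 and 11.2 CPM. These calls too rest on a gene tested through the group where it is high. The list's median log2 fold change was 0.82 in DP and 0.74 in SPR against SPF.

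Lhx6 and Basp1 are the genes of the set that are best known from nerve cells. Lhx6 lies at chr2:36081953-36105408 on the minus strand and is set out in 9 transcripts. It had 29.9, 24.9 and 25.4 CPM in DP and 25.5, 32.3 and 15.7 CPM in SPR, against 0.907, 0 and 0 CPM in SPF. DP lay within the range of SPR, and all 6 libraries were far above SPF. The ratio of summed counts was 87.5 for DP over SPF (23.9 to 728) and 75.2 for SPR over SPF (20.6 to 625). Without SPF replicate 1, which held both SPF counts, they were at least 38.6 and 33.2 against a floor of 3 counts over SPF. The genes on either side were in use throughout: Ndufa8 averaged 258 ± 33.2, 223 ± 7.59 and 232 ± 20.4 CPM in DP, SPR and SPF, and Rbm18 63.8 ± 4.88, 60.5 ± 11.3 and 54.9 ± 10.6 CPM (SD, n = 3 each). Gm27953, a short RNA gene within Lhx6 on the same strand, was not analysed here. Morn5, 2234 bases away, had no count in any library.

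RefSeq gives 3 start windows for Lhx6, and the one at the most upstream start is shown because it alone held a match. It lies at chr2:36105359-36105658 on the minus strand (GRCm38.p6), is 63.3% G and C, and has TGANTCA from 181 to 175 bases before the start. Capitals mark that match and the start base.
Lhx6: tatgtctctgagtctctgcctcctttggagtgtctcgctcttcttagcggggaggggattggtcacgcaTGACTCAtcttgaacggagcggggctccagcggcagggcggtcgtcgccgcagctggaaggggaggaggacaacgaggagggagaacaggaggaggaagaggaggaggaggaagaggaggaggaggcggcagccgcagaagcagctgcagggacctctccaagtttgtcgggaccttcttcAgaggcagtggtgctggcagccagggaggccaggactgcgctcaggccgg
The match is a description, since 7.81% of all windows hold one, and which start these cells used cannot be read from reads counted per gene.

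Neuron markers were checked beside both genes. Of 6 such markers 4 were in the table, with a summed level of 5.89 to 16.3 CPM in DP, 8.72 to 27.1 CPM in SPR and 0 to 0.929 CPM in SPF, and Rbfox3 was at 0 in all libraries. The sum was carried by Gad2, which encodes an enzyme of GABA synthesis, with 13, 34 and 11 counts in DP and 22, 42 and 43 in SPR, against 0 in each SPF library, and by Gad1, with 6 counts in DP, 32 in SPR and 2 in SPF. The part of other cells in the levels of Lhx6 and Basp1 was not tested. The summed B cell markers reached 4.21 to 6.02 CPM in DP and 3.01 to 7.71 CPM in SPR, against 14.4 to 27.4 CPM in SPF, and were carried by Cd79b, with 27 counts in DP and 38 in SPR, against 126 in SPF. Those of myeloid cells reached 1.26 to 2.86 CPM in DP and 1.29 to 3.49 CPM in SPR, against 4.65 to 11.3 CPM in SPF, and rested on Itgam, with 3 counts in DP and 2 in SPR, against 41 in SPF. Other members ran the other way at a few counts, such as Lyz2, with 3 counts in DP and 11 in SPR, against 1 in SPF, and Csf1r and Cd14 were at 0.

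The LIM list has 11 other genes among those counted, and 5 were tested. Of these, 1 was higher and 1 lower in DP against SPF (7.55% and 6.18% of all genes), and 0 were higher and 1 lower in SPR against SPF (9.14% and 7.58%). Lmo4, a LIM-only partner, was higher in DP against SPF by 0.80 on the log2 scale (adjusted p = 0.0335), and Ssbp3, which stabilises LIM complexes, was lower, with log2 fold changes of -1.16 in DP (adjusted p = 0.00765) and -1.19 in SPR (adjusted p = 0.00463). No other LIM gene was called against SPF, and the list's median was -0.46 in DP and -0.48 in SPR. Lhx2, a close relative, averaged 1.05 ± 0.333 CPM in DP and 1.54 ± 0.667 CPM in SPR, against 1.08 ± 0.712 CPM in SPF (SD, n = 3 each).

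Basp1 lies at chr15:25363277-25413764 on the minus strand. It had 46.3, 179.8 and 54.2 CPM in DP and 75.0, 455.4 and 98.9 CPM in SPR, against 11.3, 9.30 and 27.4 CPM in SPF. In DP and in SPR replicate 2 stood far above the other libraries, and SPF replicate 2 was the lowest of its group. The ratio of summed counts was 6.25 for DP over SPF (5.07 to 7.76) and 11.5 for SPR over SPF (9.43 to 14.2), and without replicate 2 of the Th17-culture population it was 3.09 for DP and 5.54 for SPR. Without SPF replicate 3 it was 9.66 for DP and 17.8 for SPR. The lowest Th17-culture library still stood above the highest SPF library. Of 12 relatives and partners of Basp1, all in the table, 10 were tested. Gap43, a growth-associated protein of nerve endings, was called higher in SPR against SPF by 5.10 on the log2 scale (adjusted p = 0.0499). Gap43 had 7, 40 and 9 counts in SPR, against 0, 0 and 1 in SPF, and it too was highest in SPR replicate 2. That library, at 17.2 CPM, was the only one in which Gap43 was over the low-count filter. Its call, just under the threshold, thus rests on a gene tested through the group where it is high. It had 0, 10 and 1 counts in DP and was not called there. Prkca, a protein kinase C gene, was lower, with log2 fold changes of -1.20 in DP (adjusted p = 0.0043) and -1.52 in SPR (adjusted p = 0.000755).

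Within the Th17 culture, the question was whether the 6 genes differed between the cells that also express Foxp3 and those that do not. All 6 passed the low-count filter. With all 9 libraries in edgeR's quasi-likelihood test, 0 of the 6 were called between DP and SPR, as for nearly all genes: 1 gene of 9310, Foxp3, was called, or 0.0107%. DESeq2 called 0 of the 6 too. At an unadjusted p under 0.05, 2 of the 6 passed, Crispld2 and C2cd4d, beside 6.57% of all genes. The same 2 were the genes for which all DP libraries lay below all SPR libraries, which held for 5.41% of genes tested. For 0 of the 6 did all DP libraries lie above all SPR libraries, beside 9.04% of genes tested.

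The replicate numbers were taken to pair DP with SPR libraries. The labels do not state this pairing, which was inferred from correlations in these same data. With the number as a block in a fit of the 6 Th17-culture libraries, 2 of the 6 genes were called, both lower in DP, and 0 higher. Of all genes, 3.48% were called in either direction, 1.51% lower and 1.97% higher. With the block in all 9 libraries neither was called (adjusted p = 0.291 for Crispld2 and 0.638 for Basp1). In the block fit of the 6 Th17-culture libraries (the paired fit), Crispld2 had a log2 fold change of -0.80 for DP over SPR (SE 0.146, 95% interval -1.12 to -0.48, adjusted p = 0.0132). It was -0.82 (SE 0.204, adjusted p = 0.442) with all 9 libraries and no block. DP over SPR was 0.655 in replicate 1 (95% counting interval 0.512 to 0.834), 0.524 in replicate 2 (0.417 to 0.656) and 0.609 in replicate 3 (0.469 to 0.782). The call was lost without replicate 1 (adjusted p = 0.0505) or replicate 3 (adjusted p = 0.0887) and held without replicate 2 (adjusted p = 0.00647).

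Basp1 had a log2 fold change of -1.05 in the paired fit (SE 0.159, 95% interval -1.39 to -0.70, adjusted p = 0.00435), and -1.19 (SE 0.696, adjusted p = 0.834) with all 9 libraries and no block. DP over SPR was 0.617 in replicate 1 (0.486 to 0.780), 0.395 in replicate 2 (0.352 to 0.442) and 0.548 in replicate 3 (0.425 to 0.698). It passed the threshold with any one pair left out, with adjusted p of 0.0184, 0.000554 and 0.0219 in the paired fit. The spread behind the p-values of the paired fits is mostly borrowed from other genes. Without the block its value rested on 1 library, since leaving out SPR replicate 2 gave 0.05.

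C2cd4d was lower in DP in every pair, at 0.759 (0.601 to 0.955), 0.369 (0.277 to 0.488) and 0.816 (0.621 to 1.06) of SPR, but it was not called: its log2 fold change was -0.74 (SE 0.207, 95% interval -1.19 to -0.29, adjusted p = 0.0811) with the block and -0.72 (SE 0.287, adjusted p = 0.693) without. Crispld2, Basp1 and C2cd4d were the 3 genes lower in DP in 3 of 3 pairs, which held for 15.3% of genes tested.

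**Figure D4:**
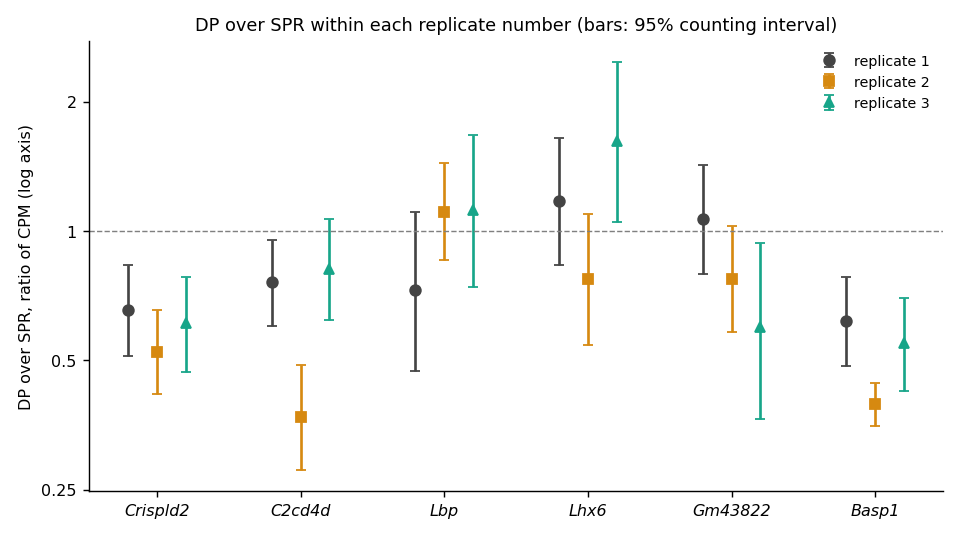
DP over SPR ratio of CPM within each replicate number (vertical axis, log scale; bars are 95% counting intervals) for the 6 genes. Crispld2, C2cd4d and Basp1 lie below 1 in all 3 pairs, and the others lie on both sides of 1.

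Lbp, Lhx6 and Gm43822 were not called in either fit, and their intervals leave room for differences. In the paired fit Lbp had a log2 fold change of -0.07 (95% interval -0.50 to 0.36), Lhx6 0.11 (-0.38 to 0.60) and Gm43822 -0.34 (-0.76 to 0.08). The pairs of Lhx6 stood at 1.17, 0.772 and 1.62, and those of Gm43822 at 1.06, 0.773 and 0.598. Those of Lbp stood at 0.727, 1.11 and 1.12.

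Lbp and Basp1 also moved with the replicate number. In DP the replicate 2 library was 2.18-fold above the higher of the other two for Lbp and 3.32-fold for Basp1, and in SPR 2.20-fold and 4.60-fold. Of 9310 genes tested, 43 (0.462%) were more than 2-fold up in replicate 2 in both populations, and no other gene of the set reached 1.5-fold in either. In SPF replicate 2, Lbp had 0 counts and Basp1 its lowest level. The sources used here do not say what the replicate number stands for beyond the label, and its part in these levels was not tested.

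Genes with the most similar profile were sought by the root mean square difference of centred log2(CPM + 1) over the 9 libraries. These include SPF, and the genes of the set were chosen by their levels against SPF. Genes with a similar step between the Th17 culture and SPF were thus favoured as neighbours by that choice. The neighbours are a description, and shared regulation was not tested. Tgfb3, which encodes a TGFβ made by Th17 cells, was nearest to Crispld2 (0.30), followed by Gm38411 (0.45) and Alpk2 (0.46). Nearest to C2cd4d were Crispld2 (0.49), Tgfb3 (0.67) and AA467197 (0.68). Lbp stood nearest to Gatm, an enzyme of creatine synthesis (0.41), Gcnt2 (0.42) and Il21 (0.44). Adarb1, an RNA-editing enzyme, was nearest to both Lhx6 (0.38) and Gm43822 (0.34), with Il12rb2, a receptor chain for IL12, also among the nearest of each (0.43 and 0.40). Between Adarb1 and Il12rb2 stood Gm17767 for Lhx6 (0.39) and Gatm for Gm43822 (0.38).

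Basp1 had other neighbours: Lilrb4a (0.35), Ttc39c (0.42) and Lilr4b (0.47). Lilrb4a encodes an inhibitory receptor of leukocytes, and had 14, 56 and 6 counts in DP and 21, 113 and 48 in SPR, against 0, 1 and 9 in SPF. Ttc39c had 9, 34 and 4 counts in DP and 16, 92 and 33 in SPR, against 3, 0 and 2 in SPF. Both shared the high replicate 2 libraries of Basp1. Lilrb4a and Lilr4b are near-identical copies, so their counts are uncertain.

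Beyond the 6 genes, 68 genes averaged 10 CPM or more in both DP and SPR and at most 15 counts over SPF, and 5 of them were the listed ones other than Basp1. The 10 with the highest level in the Th17 culture were Tgfb3, Gipr, AA467197, Serpinb1a, Timp1, Ltb4r1, Crispld2, Alpk2, Mgll and C2cd4d. Tgfb3 led with 92.6, 95.6 and 107.7 CPM in DP and 131.2, 189.0 and 152.9 CPM in SPR, against 1.36, 0.465 and 3.72 CPM in SPF. Gipr, the receptor of a gut hormone, followed with 48.9 ± 24.6 CPM in DP and 155.0 ± 60.1 CPM in SPR, against 0.760 ± 0.943 CPM in SPF (SD, n = 3 each).

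The known genes of each program gave the frame. Of 19 Th17 genes tested, 15 were higher and 0 lower in DP against SPF (7.55% and 6.18% of all genes), and 16 were higher and 1 lower, Podxl, in SPR against SPF (9.14% and 7.58%). Of 16 Treg genes tested, beside the same shares, 1 was higher and 9 lower in DP against SPF, and 1 was higher and 10 lower in SPR against SPF. Il21, beside which Gm43822 lies, was higher by 5.98 in DP (adjusted p = 0.000154) and by 5.90 in SPR (adjusted p = 0.000138) on the log2 scale. Ikzf2, the gene of Helios, had log2 fold changes of -4.50 in DP (adjusted p = 0.00335) and -4.09 in SPR (adjusted p = 0.00213).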

How the data were processed

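RNA of 9 sorted T cell samples was made into MARS-seq libraries, which read transcript 3′ ends. Tools in the submitters' processing notes are STAR, HTSeq, SAMtools and cutadapt, with mm10 as the build. The sources used here do not give the strand setting, the use of molecular identifiers or the annotation. The authors deposited raw counts per gene in 1 table. One unnamed line of column totals and 1 column that matches no library were left out. CPM used the column total. Library totals lay between 1495152 and 3759662.

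Genes over 10 CPM in at least 1 library (9310 of 24062) were tested with edgeR 4.0.16 (limma 3.58.1, R 4.3.3): TMM factors, quasi-likelihood test, all 9 libraries, Benjamini-Hochberg adjusted p under 0.05. Ratios of summed counts carry exact conditional binomial 95% intervals (Python 3.11.15, scipy 1.17.1). Alternatives were DESeq2 1.42.0, other scalings and filters, fewer libraries and the replicate number as a block. Deviations from the group means correlated at 0.222, 0.401 and 0.407 between DP and SPR libraries of the same number and at -0.341 to -0.026 between others, so the numbers, which are labelled as biological replicates, were taken to pair DP with SPR. They do not pair SPF (-0.151 to 0.124). The fits were tested on simulated counts. Labels do not say whether the replicates come from separate mice. The p-values set a difference against the spread between these samples, whatever that spread stands for. In the block fits it is the spread left after the replicate number. edgeR moderates the spread of each gene by that of the other genes. The fit of all 9 libraries had 6 residual and 4.93 prior degrees of freedom, and the paired fit had 2 and 10.1. The p-values of the paired fit thus rest mostly on a spread borrowed from other genes. Leaving out a pair leaves fewer residual degrees of freedom still.

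The 6 genes and the gene lists were chosen with earlier results of these data known. Named beside them are the 3 genes with the nearest profile for each, the nearest 3 annotated genes on each side that reach 10 CPM, the 10 highest of the genes sharing the pattern, up to 4 called genes per list, and Foxp3 (1 further gene that the rule names is not reported here); Gad1, Gad2, Gm36070, Gm12534, Them5, Morn5, the genes of lowest SPF share and the uncalled list genes were added after their values were seen.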

Additional observations from a re-analysis of the deposited data

How the results depend on the processing

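The comparison with SPF is limited by depth: 5 of the 6 genes rest on 2 counts in SPF. The counting intervals of their ratios thus span more than an order of magnitude, such as 43.4 to 1311 for Crispld2 in DP over SPF. In addition, 3 libraries per group limit every test. With the replicate number as a block in the fit of the groups compared, Crispld2 (-0.80) and Basp1 (-1.05) passed the threshold between DP and SPR (neither did with the block in all 9 libraries), Lbp changed sign to -0.0672 (-0.0799 with the block in all 9 libraries, and -0.0111 in DESeq2), and the other genes kept their side. Leaving out replicate 1, 2 or 3 from the block fit, chosen after seeing the data, gave -1.16, -0.83 and -1.11 for Basp1, all past the threshold. Without replicate 2 it gave -0.71 for Crispld2, which stayed past it, and -0.19 for Lbp, and without replicate 3, -0.15 for Lbp and -0.12 for Lhx6. Without a low-count filter Basp1 passed at -1.19 (adjusted p = 1.91e-05); the cause was not tested.

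With 1 library left out and no block, the log2 fold change of DP over SPR ran from -2.10 to 0.0486 for Basp1 (positive without SPR replicate 2), from -0.64 to 0.47 for Lbp (negative without SPR replicate 1 or 3 or DP replicate 2), from -0.14 to 0.33 for Lhx6 (negative without SPR replicate 3), from -0.95 to -0.71 for Crispld2, from -0.86 to -0.49 for C2cd4d and from -0.48 to -0.03 for Gm43822, none of them past the threshold. Ratios of summed counts over SPF ran, for DP and for SPR, from 3.09 to 9.66 and 5.54 to 17.8 for Basp1, 62.3 to 167 and 99.5 to 239 for C2cd4d, 106 to 212 and 180 to 360 for Crispld2, 71.0 to 142 and 76.9 to 154 for Gm43822, 63.0 to 143 and 63.0 to 126 for Lbp, and 38.6 to 91.6 and 33.2 to 92.8 for Lhx6. The low ends for C2cd4d and Lhx6 are lower bounds against a floor of 3 counts over SPF. There the SPF replicate left out held both counts.

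Between DP and SPR, 1 gene of all was called, against 44 in DESeq2, 4 with library totals, 211 without a filter, 2 with the groups compared alone, 324 with the block in these groups, 7 with the block in all 9 libraries and 1 to 6 with 1 library left out; the block fit called 130, 447 and 120 without replicate 1, 2 and 3. Between DP and SPF, 1278 genes were called, against 2137 without a filter and 553 to 1822 with 1 library left out (553 without SPF replicate 2, 565 without DP replicate 2). The groups compared alone gave 855, the block in these groups 430 and the block in all 9 libraries 1410. With library totals the 703 higher and 575 lower became 824 and 443. Between SPR and SPF, 1557 were called, against 2479 without a filter and 836 to 2059 with 1 library left out (836 without SPR replicate 2, 878 without SPF replicate 2). Here the groups compared alone gave 1300, the block in these groups 1022 and the block in all 9 libraries 1769. Of the 68 genes sharing the pattern, 30 remained at 20 CPM or more and 29 at 5 counts or fewer in SPF, with the 5 listed genes in each.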

Other observations

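Among the 63 other genes that shared the pattern (at least 10 CPM in DP and SPR and at most 15 counts over SPF), DP and SPR were not alike throughout. In the paired edgeR fit of the 6 Th17-culture libraries, 18 were lower and 3 higher in DP than in SPR, beside 1.51% and 1.97% of all genes tested. With all 9 libraries and no block 0 were called, and 21 had an unadjusted p under 0.05. The cytokine gene Il10 was lower in DP by log2 fold change, at -1.50 (SE 0.220, adjusted p = 0.00341), as were Il24, a cytokine of the IL10 family, at -1.83 (SE 0.184, adjusted p = 0.00027), Serpinf1, at -1.83 (SE 0.171, adjusted p = 0.000212), and Gipr, at -1.75 (SE 0.153, adjusted p = 0.000172). Higher in DP were Ly6g, at 1.70 (SE 0.321, adjusted p = 0.0162), Klrd1, which encodes the NK receptor chain CD94, at 1.60 (SE 0.340, adjusted p = 0.0265), and B4galnt4, at 1.48 (SE 0.245, adjusted p = 0.00759).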
